A study of Bos taurus with 9 samples.

Results

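Heat shock proteins and DnaJ co-chaperones were measured in granulosa cells of Holstein-Friesian cows 30, 60, 90 and 120 days after calving. The members were all probes whose gene symbol on the array began with HSPA, HSPB, HSPD, HSPE, HSPH or HSP90, without HSPBP1 and HSPBAP1, or with DNAJA, DNAJB or DNAJC. This gave 101 probes of 67 genes among the 43794 probes of the array. Of these, 92 probes of 63 genes gave a signal above the negative control spots and were tested, of 38823 probes and 14281 genes in all. The genes DNAJC5B, DNAJC5G, HSPA6 and HSPB3 had no probe above that limit. By family, the tested genes were 14 of 15 of the HSP70 group with its HSP110 branch, 5 of 5 HSP90 and chaperonin genes, 5 of 6 small heat shock proteins, 3 of 3 DNAJA, 12 of 12 DNAJB and 24 of 26 DNAJC genes.

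Granulosa cells line the ovarian follicle and make oestradiol. At all 4 times the cows had received prostaglandin F2alpha, and ovum pick-up of the dominant follicle followed 42 hours later. Centrifugation separated the cells from the fluid, and a wash in PBS followed. The sources used here name neither a cell sort nor the number of cows behind a sample. The 9 arrays paired RNA of an early day in the red dye (Cy5; 3 arrays each for 30, 60 and 90 days) with RNA of 120 days in the green dye (Cy3). The labels call the 3 samples of a day biological replicates and 120 days the reference. Dyes were not exchanged on any array, so a dye effect of a probe remains in each ratio to 120 days. The day of an array was taken from the sample its file belongs to, and every comparison of days rests on it. In the authors' deposited value table, 5 of 9 columns matched another sample's array at r = 0.844 to 0.932 better than their own, 3 of them an array of another day, and which assignment is right was not settled. The strongest correlations of the remaining columns with any array were negative, at r = -0.760 to -0.592, and the direction of their values is unknown. Only for replicate 3 of 60 days was this its own array (-0.760). For replicate 2 of 30 days it was an array of 60 days (-0.670). For replicate 1 of 60 days it was an array of 90 days (-0.698), and for replicate 2 of 90 days replicate 1 of that day (-0.592).

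HSP70 proteins bind exposed stretches of unfolded proteins and release them in cycles driven by ATP. J proteins, the DnaJ family, bring them substrates and start ATP hydrolysis, and nucleotide exchange factors such as the HSP110 proteins reset the cycle. HSP90, the chaperonins and the small heat shock proteins act on other steps of folding or hold proteins that have lost their fold. In steroid-making cells these proteins also serve the folding of steroid hormone receptors, the passage of secreted proteins through the endoplasmic reticulum and the import of proteins into mitochondria.

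Median signals per array were 127.5 to 450.3 (Cy5) and 239.6 to 529.7 (Cy3), with 29.8% to 82.3% and 20.9% to 84.2% of probes above the negative controls. On the array of lowest Cy3 share, replicate 3 of 60 days, a 120-day spot was more often counted as dim. The lowest Cy5 share, 29.8%, was that of replicate 1 of 30 days, with 61.7% or more on the other arrays. A 30-day spot was more often counted as dim there. By the correlation of their Cy3 signals, the arrays fell into 3 sets with 1 array of each day, which appear to carry the same 120-day RNA. Pearson r over probes was 0.961 to 0.985 within sets and 0.886 to 0.954 between them. In order of day, set A consisted of replicates 1, 1 and 2, set B of replicates 2, 2 and 1, and set C of replicate 3 throughout. All 13 granulosa markers measured passed the signal limit, and so did 14 of 15 macrophage, 15 of 18 lymphocyte and 8 of 9 neutrophil markers. Macrophage markers stood high on 3 arrays, with median log2 ratios of 2.48 (30 days, replicate 2), 1.91 (30 days, replicate 3) and 2.21 (90 days, replicate 1), and at most 0.56 on the other 6. In RNA of mixed cells, fewer cells of a type and less RNA per cell cannot be told apart.

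**Figure D1:**
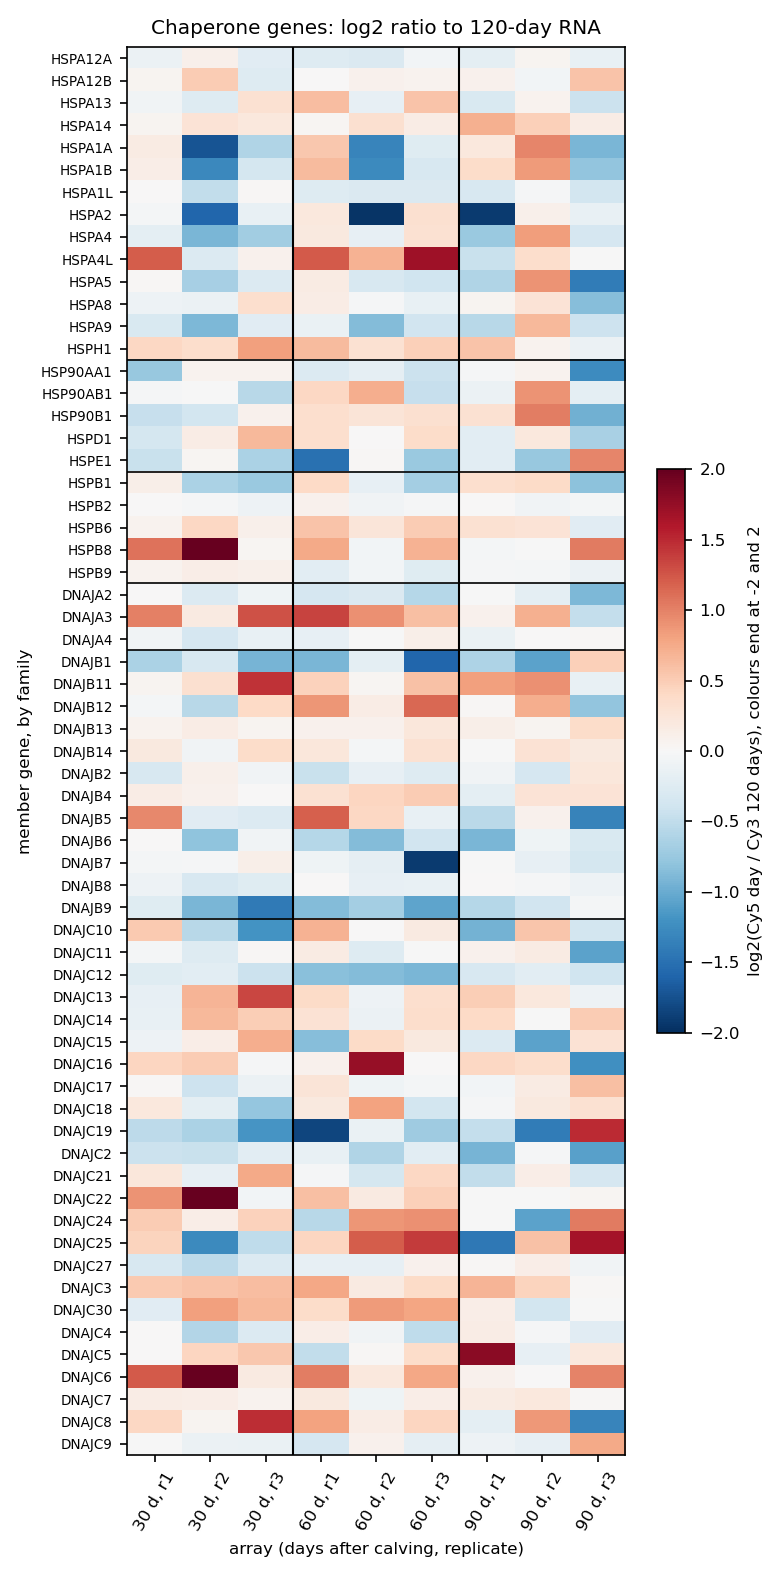
Log2 ratio of each tested chaperone gene to 120-day RNA (colour; scale ends at -2 and 2) on each of the 9 arrays, with genes in rows by family and arrays in columns by day. Rows such as HSPA1A and DNAJC25 change colour between arrays of the same day, while DNAJC12 is blue on all 9 arrays and darkest on the 3 arrays of 60 days.

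The first question was how the chaperone genes of each day differed from those at 120 days. At 60 days, 4 of 63 genes (6.35%) passed the test, limma's moderated test with Benjamini-Hochberg adjustment over all 38823 probes at 0.05. The background was 13.1% of all 14281 genes. DNAJB4 and HSPA4L were higher (6.09% of all genes), and DNAJC12 and DNAJB9 were lower (7.05% of all genes). When ratios were centred on the median of each array in place of loess, the split was 0 higher and 3 lower (DNAJB1, DNAJB9 and DNAJC12). The median log2 ratio of the chaperones at 60 days was 0.05, against -0.05 for all genes, and their range was -0.90 to 1.21. An unadjusted p under 0.05 was found for 15 chaperone genes, and for 31.1% of all genes.

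At 30 days, 0 of 63 chaperone genes passed (background 0.287%), and the smallest adjusted p by limma was 0.103. There, 12 had an unadjusted p under 0.05, against 20.9% of all genes, and the median log2 ratio was -0.07 against -0.01. At 90 days, 0 of 63 passed (background 0.00700%), the smallest adjusted p by limma was 0.295, and 5 had an unadjusted p under 0.05 against 11.5%. The 3 comparisons share the 120-day RNAs and are not independent. Nothing in the labels says whether the 3 samples of a day came from separate animals, so p-values measure the spread between these samples.

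**Figure D2:**
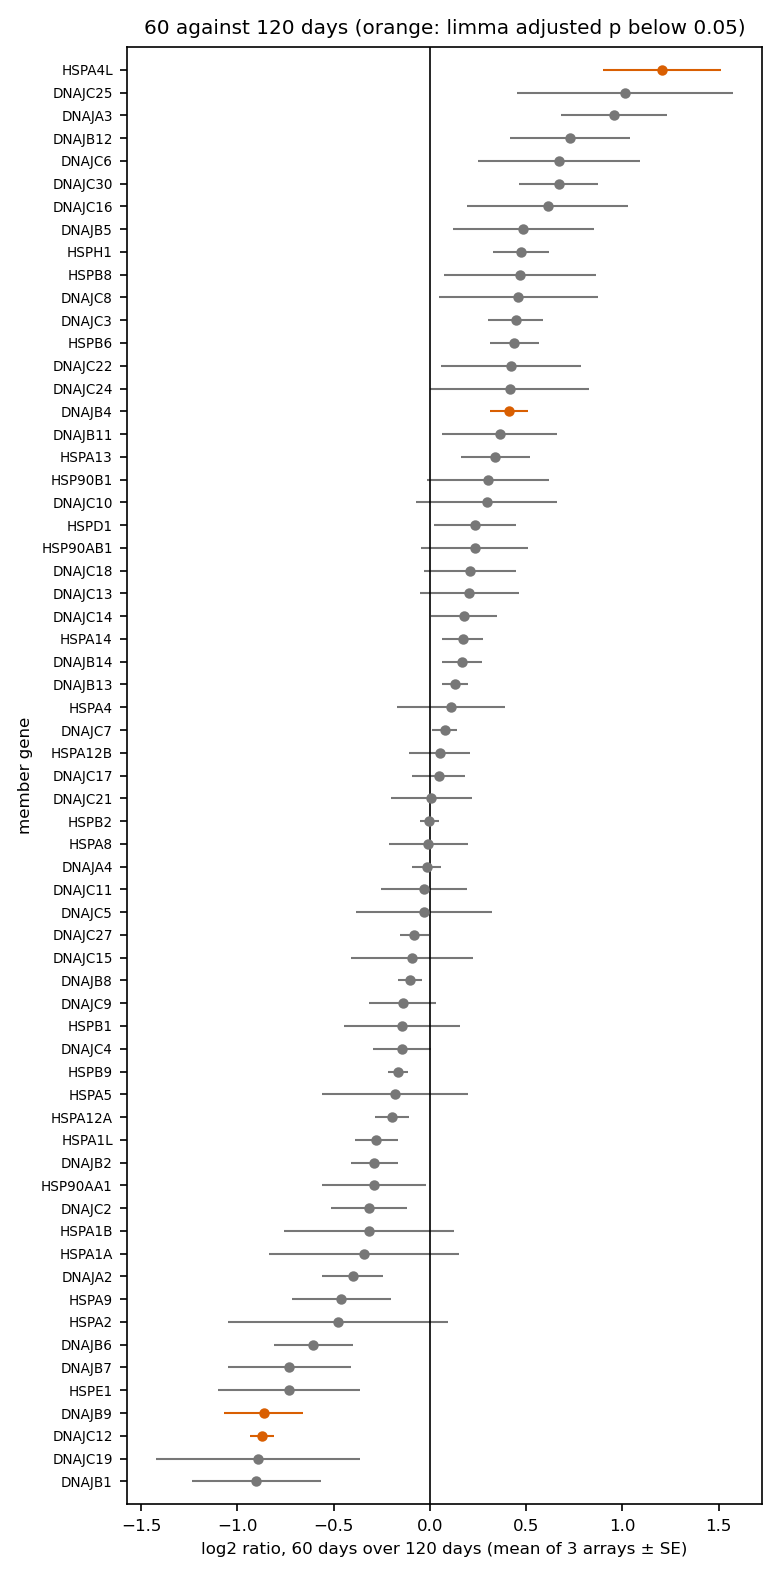
Log2 ratio at 60 days over 120 days for the 63 tested chaperone genes (points, mean of 3 arrays; bars, SE of the limma model), ordered by value. The 4 genes past the threshold (orange) lie at -0.87, -0.86, 0.41 and 1.21, and DNAJC12 has the shortest bar of the 4.

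DNAJC12, a J protein known in humans as the co-chaperone of the aromatic amino acid hydroxylases, had the smallest p of the group in each comparison with 120 days. Its log2 ratios were -0.84, -0.86 and -0.91 on the 60-day arrays, -0.25, -0.21 and -0.43 on the 30-day arrays, and -0.33, -0.20 and -0.40 on the 90-day arrays. All 9 ratios were below 0, and the 60-day arrays lay below all others with no overlap. At 60 days DNAJC12 was 1.83-fold lower than at 120 days (log2 -0.87 ± 0.06, SE, n = 3, limma adjusted p = 0.00484). The differences of -0.30 ± 0.06 at 30 days and -0.31 ± 0.06 at 90 days did not pass, with adjusted p by limma of 0.103 and 0.295.

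The 2 channels of DNAJC12 were also read apart. Normalised Cy5 levels of DNAJC12 were 7.93, 8.01 and 8.09 (log2) at 60 days, and between 8.38 and 8.63 on the 6 arrays of 30 and 90 days. Cy3 levels of the 120-day RNA were 8.77, 8.87 and 8.995 on the 60-day arrays, in an overall range of 8.61 to 9.02. Spots of DNAJC12 were above background on 2 of the 3 arrays of 60 days for 120 days. For 30 days they were so on 2 of 3 arrays. The 60-day Cy5 levels were thus below those of the other days, while the 120-day levels of the same arrays lay within the range of the rest. Within set A, however, the 120-day level was highest on the 60-day array, at 8.77 against 8.65 and 8.61. The same held in set B, at 8.87 against 8.72 and 8.71. In these sets the lower 60-day ratio rested on both channels. On the arrays high in macrophage markers the DNAJC12 ratios were -0.21, -0.43 and -0.33, beside -0.25, -0.20 and -0.40 on the other arrays of 30 and 90 days. Without those 3 arrays, which are of 30 and 90 days, DNAJC12 still passed at 60 days. Its 60-day log2 value could not move, so the part of those cells was not tested. DNAJC12 also passed without any single array, with log2 values of -0.89 to -0.85 when a 60-day array was left out. It missed the threshold when the 60-day arrays were fitted alone (log2 -0.87, limma adjusted p = 0.0557).

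DNAJB9 (ERdj4), a J protein of the endoplasmic reticulum that hands misfolded proteins on for degradation, was the other gene lower at 60 than at 120 days. Its log2 ratios were -0.87, -0.68 and -1.05 at day 60, -0.24, -0.91 and -1.41 at day 30, and -0.56, -0.38 and -0.03 at day 90. All 9 were below 0, the 30-day arrays spanned the 60-day values, and the 90-day arrays lay above them. At 60 days DNAJB9 was 1.82-fold lower (log2 -0.86 ± 0.21, SE, n = 3, limma adjusted p = 0.0354). The mean at 30 days was as low, -0.85 ± 0.21, but did not pass (limma adjusted p = 0.135). DNAJB9 missed the threshold without replicate 2 of 30 days, without any 1 of the 60-day arrays, and without replicate 1 or 2 of 90 days, with log2 values of -0.96 to -0.77 throughout.

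HSPA4L, an exchange factor of the HSP110 branch best known from testis, had the highest ratio of the group at 60 days. Its log2 ratios were 1.22, 0.70 and 1.70 at day 60, 1.21, -0.27 and 0.08 at day 30, and -0.45, 0.35 and -0.00 at day 90. The 60-day values overlapped with replicate 1 of 30 days and lay above the other 5 arrays. HSPA4L was 2.31-fold higher at 60 days than at 120 days (log2 1.21 ± 0.31, SE, n = 3, limma adjusted p = 0.0417), with 120-day spots above background on 2 of those 3 arrays. The arrays high in macrophage markers gave HSPA4L -0.27, 0.08 and -0.45, among its 4 lowest values. The part of those cells in the result was not tested. HSPA4L missed the threshold when any array other than replicate 1 or 2 of 30 days was left out, with adjusted p by limma of 0.0546 to 0.192. Its log2 value stayed at 1.21 without any array of 30 or 90 days and at 0.96 to 1.46 without 1 of the 60-day arrays.

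DNAJB4, a cytosolic J protein that rises with heat, showed small ratios. They were 0.30, 0.43 and 0.50 at day 60, 0.14, 0.08 and 0.00 at day 30, and -0.20, 0.28 and 0.28 at day 90 (log2). The 3 arrays of 60 days lay above the other 6, the nearest being 0.28 at 90 days. DNAJB4 was 1.33-fold higher at 60 days than at 120 days (log2 0.41 ± 0.10, SE, n = 3, limma adjusted p = 0.0365). Spots of DNAJB4 were above background on 2 of those 3 arrays for 120 days, and on 1 of 3 arrays for 30 days. Its call was lost without any 1 array of 30 or 60 days, with log2 values of 0.37 to 0.47. Its ratio was lower on the 3 arrays high in macrophage markers than on the other 6.

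**Figure D3:**
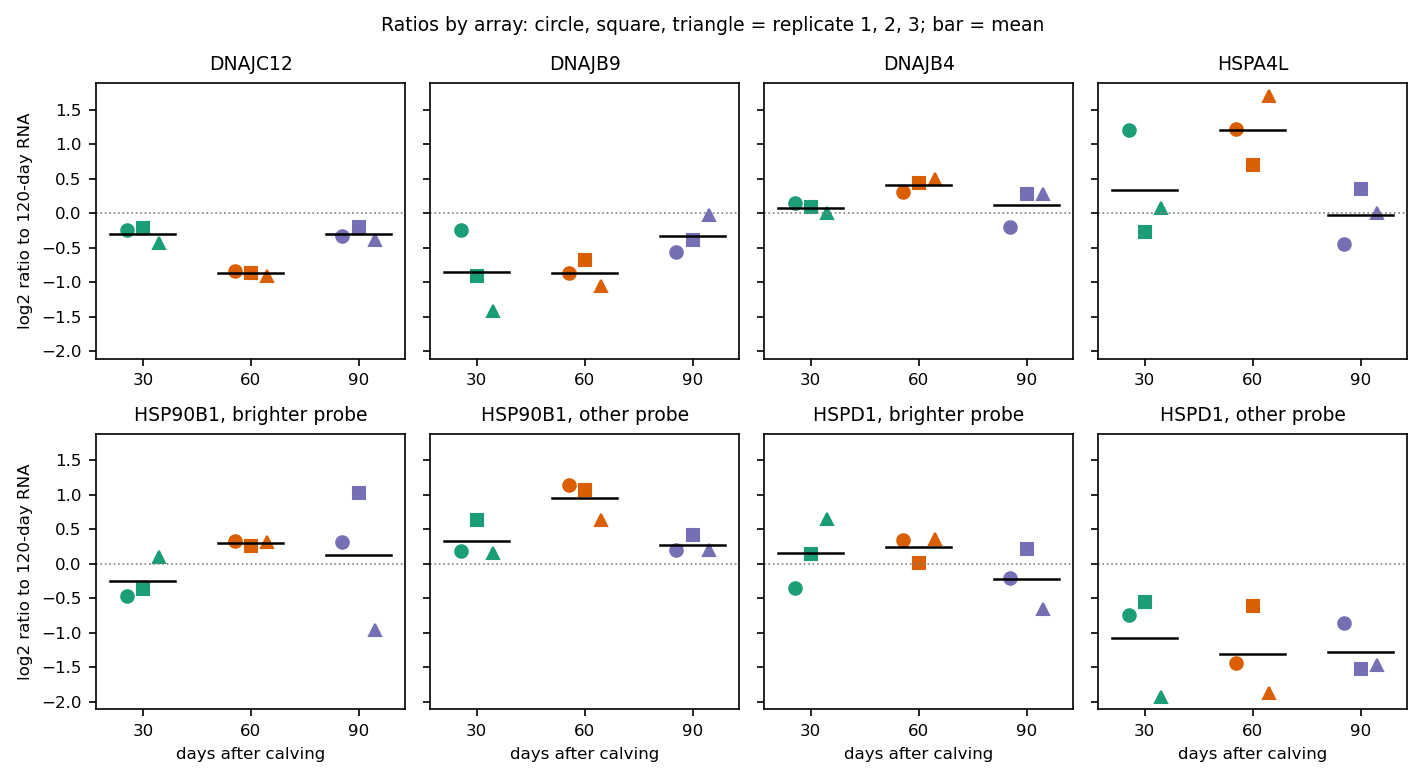
Log2 ratio to 120-day RNA (vertical axis) by day after calving (horizontal axis) for the 4 genes called at 60 days and both probes of HSP90B1 and HSPD1. Each symbol is 1 array and each bar the mean of 3; DNAJC12 shows 60-day values of -0.84 to -0.91 apart from all others, and the probes of HSPD1 differ in level at every day.

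Cell type markers moved in the same comparison. At 60 days 3 of 13 granulosa markers passed as higher and 0 as lower. Passing as lower, with 0 higher, were 6 of 15 lymphocyte, 3 of 8 neutrophil and 3 of 9 epithelial markers. Of 14 macrophage markers 0 passed, though only 2 were above 0, with a median log2 ratio of -0.45 and a range of -3.69 to 0.52. Over all genes, 6.09% passed as higher and 7.05% as lower. The median granulosa marker ratio was 0.64 to 1.45 on the 60-day arrays, -1.67 to 0.39 at 30 days and -1.35 to 0.85 at 90 days (log2). The part of cell makeup in the 4 chaperone calls was not tested. Without the 3 arrays high in macrophage markers, which are of 30 and 90 days, DNAJC12 alone passed. The 60-day log2 values of HSPA4L (1.21), DNAJB9 (-0.86) and DNAJB4 (0.41) did not move, since no 60-day array was left out, and with fewer arrays behind the error their adjusted p by limma were 0.0659, 0.0501 and 0.0652.

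The HSP70 group and its regulators came next. HSPA5 (BiP), the HSP70 of the endoplasmic reticulum, gave log2 ratios of 0.02, -0.66 and -0.27 at day 30, 0.16, -0.32 and -0.39 at day 60, and -0.61, 0.90 and -1.40 at day 90. The highest and the lowest of the 9 values both came from 90 days, so the spread within that day covered the other days. Its mean ratios were -0.30 ± 0.38, -0.18 ± 0.38 and -0.37 ± 0.38 (SE, n = 3), with adjusted p by limma of 0.659, 0.766 and 0.721. None of these passed, and the signs changed with the processing. HSPA5 was 0.27 at 60 days under median centring, and 0.15 at 90 days without replicate 3. HSPA5 ratios on the 3 arrays of set A lay above the other 6, and its 120-day level averaged 12.30 in set A, 13.11 in set B and 12.74 in set C (log2).

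The constitutive cytosolic form HSPA8 stayed between -0.84 and 0.34 on the 9 arrays, with means of 0.04, -0.01 and -0.17 at 30, 60 and 90 days (SE 0.20). HSPA9 (mortalin), the mitochondrial HSP70, had means of -0.48, -0.46 and -0.11 (SE 0.26), and its ratios on set B lay below those of the other 6 arrays. HSPH1, an HSP110 exchange factor, was above 0 on 8 of 9 arrays, with 0.41, 0.35 and 0.82 at day 30 and 0.64, 0.31 and 0.47 at day 60. Its mean log2 ratio was 0.53 ± 0.15 at 30 days (limma adjusted p = 0.157) and 0.48 ± 0.15 at 60 days (0.0692), so it did not pass. Of the 14 HSP70 genes, 1 was higher, 0 were lower and 13 did not pass at 60 days, with a median of -0.10. Beside these counts, 6.09% of all genes were higher and 7.05% lower.

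The heat-inducible HSP70 genes HSPA1A and HSPA1B varied widely between arrays of 1 day. HSPA1A ratios were 0.17, -1.72 and -0.60 at day 30, 0.54, -1.32 and -0.24 at day 60, and 0.21, 0.97 and -0.92 at day 90 (log2). HSPA1B ratios were 0.14, -1.29 and -0.35, then 0.63, -1.27 and -0.31, then 0.37, 0.85 and -0.79. Both genes went up and down on the same arrays. They are near-identical copies, and the gene table lists HSPA1B and HSPA2 as older names of HSPA1A, so which gene each probe reads is uncertain. The 120-day channel of HSPA1A differed between the sets. Its normalised Cy3 level was 8.40, 8.59 and 8.59 in set A, 10.34, 10.63 and 10.59 in set B and 9.40, 9.36 and 9.49 in set C (log2). The sets did not overlap, and the means of sets A and B differed by 3.98-fold. In the Cy5 channel HSPA1A lay between 8.57 and 9.56 on 8 arrays and at 10.79 on replicate 1 of 90 days.

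HSPA2, an HSP70 best known from testis, had log2 ratios of -1.59, -1.96 and -1.91 on the arrays of set B, and between -0.15 and 0.32 on the other 6. Its Cy5 levels were 7.39 to 8.24 on all 9 arrays, while the Cy3 levels were 9.82, 10.02 and 9.83 in set B and 7.54 to 8.07 elsewhere. The low ratios thus followed a 120-day level that was high in 1 set. The 120-day spot of HSPA2 was above background on all 3 arrays of set B, 2 of set A and 1 of set C, so the low levels lie near the limit of measurement. A second HSPA2 probe gave -1.73, -1.61 and -1.55 on set B and -0.53 ± 0.53, -0.46 ± 0.53 and -0.43 ± 0.53 as means of the 3 days. The mean ratios of HSPA2, -0.59, -0.48 and -0.66 (SE 0.57), did not pass at any day.

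**Figure D4:**
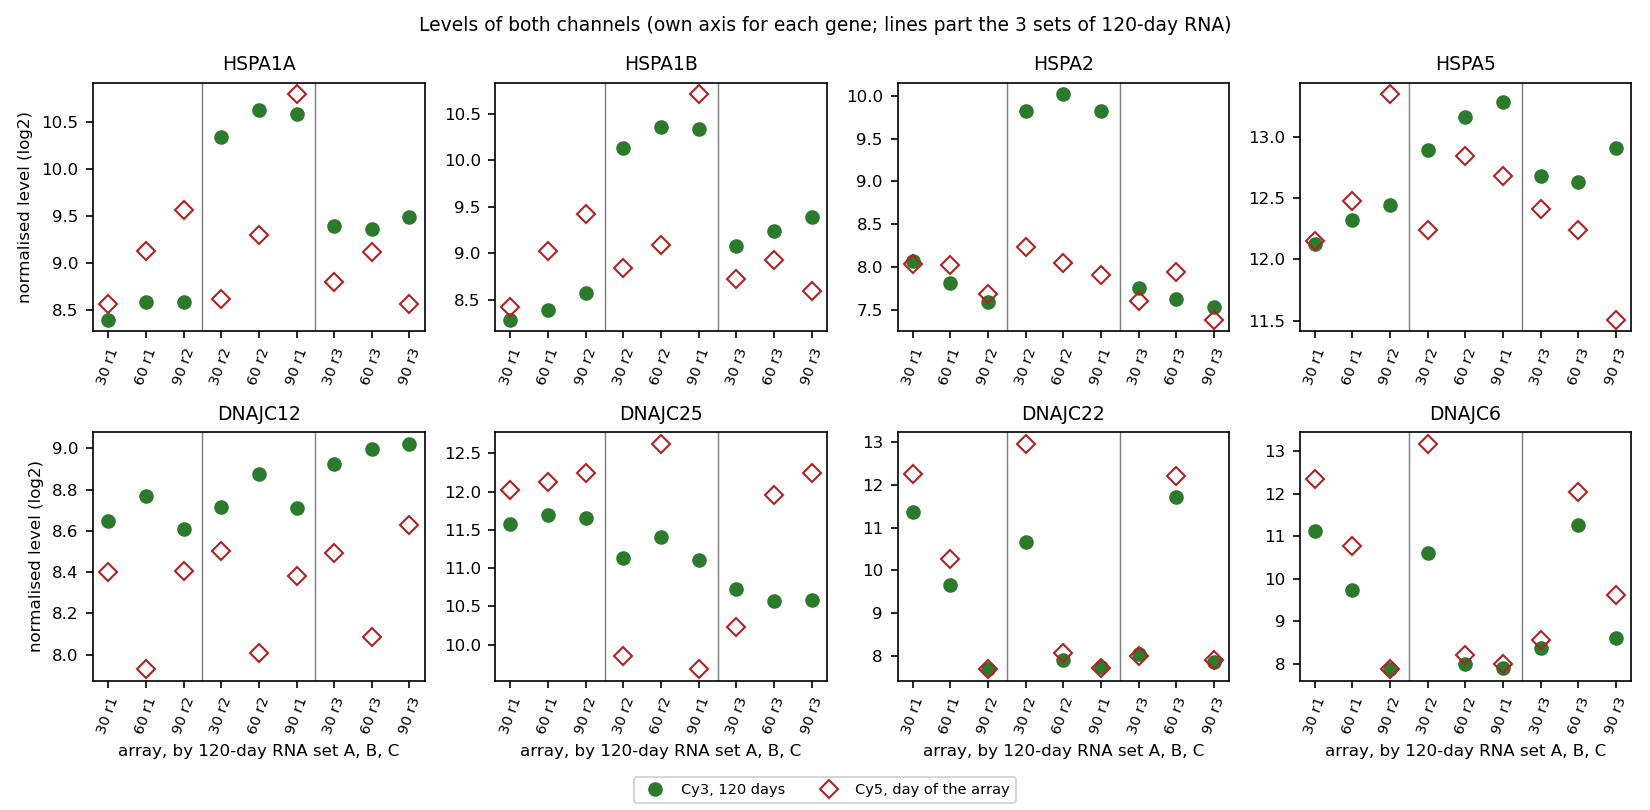
Normalised level (log2; own vertical axis per gene) of the 120-day RNA in Cy3 (filled circles) and of the day's RNA in Cy5 (open diamonds) on the 9 arrays, ordered by the 3 sets of 120-day RNA. HSPA1A, HSPA1B and HSPA2 have their highest Cy3 levels on the 3 arrays of set B, DNAJC12 has its lowest Cy5 levels (7.93 to 8.09) on the 60-day arrays, and both channels of DNAJC22 and DNAJC6 move together.

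The 120-day level of the chaperone genes was compared between sets. It differed by at least 1 on the log2 scale between the lowest and the highest set mean for 10 of 63 genes (15.9%), against 16.9% of all genes. Beside HSPA2 (4.73-fold), HSPA1A (3.98-fold) and HSPA1B (3.63-fold), these were DNAJB1, DNAJC19, DNAJB7, DNAJC24, HSPE1, DNAJC15 and DNAJC25, at 2.77-fold to 2.02-fold. The lowest 120-day level of HSPA2 was that of set C, with 1 of 3 spots above background, so the size of its fold is uncertain. The range of DNAJB7 rests on replicate 3 of 60 days, and fell from 1.37 to 0.19 (log2) without it. The median range was 0.46 for the chaperones and 0.36 for all genes, with a median SD within sets of 0.11 in both. For DNAJC12 the range was 0.30, and for DNAJB9 0.27. Ratios that did not overlap between 1 set and the other 6 arrays were found for 4 chaperone genes in set A (6.35%, against 6.69% of all genes), with DNAJC10 and HSPA5 above and DNAJB2 and DNAJC5 below. In set B, 4 genes lay below (6.35%, against 7.30%), namely DNAJB14, DNAJB6, HSPA2 and HSPA9. In set C, 3 genes lay below (4.76%, against 3.52%), namely DNAJC16, HSP90AB1 and HSPB1.

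HSP90B1 (GRP94), the HSP90 of the endoplasmic reticulum, and HSPD1 (HSP60), the mitochondrial chaperonin, each had 2 probes of which 1 passed at 60 days. The brighter HSP90B1 probe was at 0.33, 0.26 and 0.32 at day 60, with a mean of 0.30 ± 0.32 (limma adjusted p = 0.539). The model's SE is pooled over all 9 arrays, and this probe spread widely at day 90, with 0.31, 1.03 and -0.96. Its other probe gave 1.13, 1.07 and 0.63 at day 60, 0.18, 0.63 and 0.16 at day 30, and 0.20, 0.41 and 0.20 at day 90. Both probes were thus above 0 at 60 days. All 9 values of the other probe were above 0, with the lowest 60-day value level with the highest of 30 days. That probe was 1.92-fold higher at 60 days (log2 0.94 ± 0.13, SE, n = 3, limma adjusted p = 0.00964). In Cy3 it was dim, at 7.58 to 8.03 (log2) over the 9 arrays. Only 2 of the 60-day arrays and 1 of the 90-day arrays gave it a Cy3 signal beyond background. The size of this ratio is therefore uncertain.

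The brighter HSPD1 probe had a mean of 0.23 ± 0.21 at 60 days (limma adjusted p = 0.474), between 0.00 and 0.36 on the 3 arrays. The other HSPD1 probe, of opposite sign, gave -1.43, -0.62 and -1.87 at day 60, -0.74, -0.55 and -1.92 at day 30, and -0.86, -1.53 and -1.47 at day 90. It was below 0 on all 9 arrays, with the days overlapping. At 60 days this probe was 2.47-fold lower (log2 -1.31 ± 0.32, SE, n = 3, limma adjusted p = 0.0376). Which probe of these genes reads the mature transcript cannot be told from the files. One of 4 probes of DNAJC17, a J protein of the nucleus linked to splicing, also passed as lower at 60 days (log2 -0.30 ± 0.06, limma adjusted p = 0.0271), while its brightest probe had 0.05. The 120-day spots of the probe that passed were above background on 2 of the 3 arrays of 60 days. Among the 18 genes with several tested probes, all probes shared a sign in 8 genes at each day, and 0 genes had probes that passed in opposite directions at 60 days. Over probes, 3 of 92 passed as higher and 4 as lower at 60 days, against 14.2% of all probes in either direction. At 30 and 90 days 0 of 92 passed, against 0.203% and 0.00258%.

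The cytosolic HSP90 genes did not pass at any day. HSP90AA1, the inducible form, had means of -0.21, -0.29 and -0.41 (SE 0.27), and HSP90AB1, the constitutive form, had -0.19, 0.23 and 0.19 (SE 0.28). HSPE1 (HSP10), the lid of the HSPD1 chaperonin, ranged from -1.49 to 0.98, with a mean of -0.73 ± 0.37 at 60 days (limma adjusted p = 0.215). The 5 genes of this family had a median of 0.23 at 60 days, against -0.21 at 30 and 0.00 at 90 days.

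Small heat shock proteins, which hold unfolded proteins without using ATP, gave 0 calls among 5 members, beside 13.1% of all genes at 60 days. HSPB6 (HSP20) came nearest, with 0.57, 0.24 and 0.51 at day 60, 0.08, 0.41 and 0.10 at day 30, and 0.30, 0.27 and -0.23 at day 90. Its 60-day values overlapped with both other days. The 120-day spots of HSPB6 were not well above background on any 60-day array. Its ratio of 1.36-fold there is an estimate near the limit of measurement, and it did not pass (limma adjusted p = 0.0564). HSPB1 (HSP27) ran from -0.82 to 0.40, with a mean of -0.14 ± 0.30 at 60 days. CRYAB, the alpha-crystallin of this family, carries no HSPB symbol and is no member, and it was 2.40-fold lower at 60 days (log2 -1.26 ± 0.21, SE, n = 3, limma adjusted p = 0.0135), beside -0.63 at 30 days (0.185).

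J proteins that serve the endoplasmic reticulum did not move as 1 group. DNAJC3 (P58IPK), a BiP co-chaperone of the lumen, was above 0 on all 9 arrays, from 0.03 to 0.77. Its means were 0.57 ± 0.14, 0.44 ± 0.14 and 0.38 ± 0.14 at 30, 60 and 90 days, with adjusted p by limma of 0.138, 0.0747 and 0.384. DNAJB11 (ERdj3), which binds unfolded proteins with BiP, had means of 0.61, 0.36 and 0.53 (SE 0.30) and did not pass. DNAJC10 (ERdj5), a disulphide reductase, was 0.52, 0.70 and 0.56 on set A and between -1.19 and 0.18 on the other 6 arrays. Of 7 measured genes on the list of endoplasmic reticulum chaperones, 0 were higher and 1 (DNAJB9) was lower at 60 days, with a median of 0.30. Over all genes the shares were 6.09% higher and 7.05% lower.

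DNAJC25, a J protein with membrane segments, had the second highest ratio at 60 days. It gave 0.43, 1.22 and 1.39 at day 60, 0.44, -1.28 and -0.51 at day 30, and -1.43, 0.58 and 1.66 at day 90. The 3 negative values were those of the arrays high in macrophage markers, and all 6 other arrays were positive. The mean at 60 days, 1.01 ± 0.56, did not pass (limma adjusted p = 0.254). In Cy5, DNAJC25 was at 9.85, 10.22 and 9.68 on those 3 arrays and at 11.96 to 12.63 on the others, while Cy3 ran from 10.57 to 11.70.

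Over the 63 genes, 7 (11.1%) had ratios on the 3 arrays high in macrophage markers that did not overlap with the other 6, against 12.6% of all genes. DNAJB7, DNAJC13 and DNAJC5 lay above on these arrays, and DNAJB4, DNAJC10, DNAJC25 and HSPA4 below. DNAJB7 stood apart by little, with -0.03, 0.11 and -0.01 beside -0.04 on the nearest other array. Its Cy5 spots were above background on 1 of 3 arrays of 90 days, so its place is uncertain. DNAJC13 (RME-8) is a J protein of endosomes, and DNAJC5 is the cysteine string protein of secretory vesicles. By day the counts of genes that stood apart were lower. DNAJB4 and DNAJC12 stood apart at 60 days (3.17%, against 7.49% of all genes). At 30 days HSPB9 and DNAJC27 did (3.17%, against 4.57%), and at 90 days 0 genes did (against 3.22%).

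J proteins of mitochondria did not pass in any comparison. DNAJA3 (TID1), a co-chaperone of mortalin, was 1.36, 0.91 and 0.61 at day 60, 1.00, 0.18 and 1.27 at day 30, and 0.09, 0.71 and -0.48 at day 90. Its 60-day mean was 0.96 ± 0.28 (limma adjusted p = 0.0586), and its 2 other probes had 0.48 and 0.65. DNAJC19 and DNAJC15, which act at the import motor of the inner membrane, ranged from -1.84 to 1.499 and from -1.07 to 0.73. DNAJC30 was at 0.36, 0.86 and 0.79 at day 60, with a mean of 0.67 ± 0.20 (limma adjusted p = 0.0689). The 8 genes listed as mitochondrial chaperones gave 0 calls, beside 13.1% of all genes at 60 days. Their medians were 0.03, -0.06 and -0.12 at 30, 60 and 90 days.

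Among J proteins of the cytosol and nucleus, DNAJB1 (HSP40), the main heat-inducible J protein, had the lowest mean at 60 days. Its ratios were -0.91, -0.20 and -1.59 at day 60, -0.63, -0.33 and -0.93 at day 30, and -0.61, -1.07 and 0.47 at day 90. The days overlapped, the mean of -0.90 ± 0.33 at 60 days did not pass (limma adjusted p = 0.111), and its 2 other probes had 0.00 and 0.05. DNAJB6, which keeps polyglutamine proteins from aggregating, had a mean of -0.61 ± 0.21 at 60 days (0.0905). DNAJC2 and HSPA14, partners in the ribosome-associated complex, were among the smallest p at 90 days. They had -0.68 ± 0.20 and 0.44 ± 0.11, with adjusted p by limma of 0.333 and 0.306. DNAJB13, known from the sperm axoneme, was 1.13-fold higher at 90 days and did not pass (limma adjusted p = 0.395). Its 120-day spots were not well above background there, so the ratio is uncertain. DNAJC27, a small GTPase with a J domain, was at -0.32, -0.53 and -0.28 at day 30, below the other 6 arrays (-0.16 to 0.14). Its mean there was -0.38 ± 0.08 (limma adjusted p = 0.103), and its 2 other probes had 0.07 and 0.10. Of 11 genes listed as heat-inducible, 1 (HSPA4L) was higher and 0 were lower at 60 days, against 6.09% and 7.05% of all genes. The count depends on the list, which held neither DNAJB4, which passed as higher, nor CRYAB, which passed as lower.

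The 3 highest mean ratios at 30 days belonged to DNAJC6, HSPB8 and DNAJC22. DNAJC6 (auxilin), which strips clathrin coats, had log2 ratios of 1.23, 2.57 and 0.18 at day 30, 1.03, 0.21 and 0.77 at day 60, and 0.09, 0.00 and 1.00 at day 90. Its Cy5 levels ran from 7.87 to 13.18 and its Cy3 levels from 7.87 to 11.27, high on the same arrays. DNAJC22, a J protein with membrane segments, was at 0.91, 2.30 and -0.06 at day 30, with Cy5 levels of 7.69 to 12.96 and Cy3 levels of 7.69 to 11.72. The high arrays were the same ones for both genes, replicates 1 and 2 of 30 days and replicates 1 and 3 of 60 days. HSPB8, a small heat shock protein that works with BAG3, gave 1.09, 2.17 and 0.04 at day 30 at its brightest probe. The means at 30 days were 1.33 ± 0.42 for DNAJC6, 1.05 ± 0.36 for DNAJC22 and 1.10 ± 0.40 for HSPB8, and none passed (adjusted p by limma 0.180, 0.199 and 0.205). The other probes of DNAJC6 had 0.14 and -0.14, and those of HSPB8 -0.04 and 0.13. An SD of the 120-day level within sets of at least 1 was found for DNAJC22 (1.90), DNAJC6 (1.59) and DNAJB7 (1.18), which are 4.76% of the chaperones against 1.35% of all genes.

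The second question was how 30, 60 and 90 days differed from each other. In each of the 3 contrasts 0 of 63 chaperone genes passed, and 0 of all genes did (background 0%). Of the chaperones, 4, 3 and 1 had an unadjusted p under 0.05 for 60 against 30, 90 against 60 and 90 against 30 days, while 11.7%, 10.1% and 5.72% of all genes did. DNAJC12 had the smallest p in the first 2, at -0.57 ± 0.09 for 60 against 30 days (limma adjusted p = 0.343) and 0.56 ± 0.09 for 90 against 60 days (0.220). HSPA4L had 0.86 ± 0.43 and -1.24 ± 0.43 in these contrasts (0.459 and 0.465). The first became -0.00399 without the 3 arrays high in macrophage markers. DNAJB4 and DNAJC27 were at 0.34 ± 0.14 and 0.30 ± 0.11 for 60 against 30 days (0.405 and 0.375). For 90 against 60 days DNAJC30 had -0.75 ± 0.29, HSPA13 -0.56 ± 0.26 and DNAJA3 -0.85 ± 0.39, each with an adjusted p by limma of 0.485 or more. For 90 against 30 days the smallest p belonged to DNAJC27 (0.41 ± 0.11), followed by HSPB9, DNAJC17 (0.41 ± 0.20), DNAJB8 (0.18 ± 0.09) and DNAJC22 (-1.04 ± 0.52), all with an adjusted p by limma of 0.823. A limma F test for any difference among the 3 days gave 0 chaperone genes and 0 genes in all.

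Genes that work with the chaperones were read from lists. Their counts at 60 days stand beside a background of 13.1% of all genes, 6.09% higher and 7.05% lower. Of 15 exchange factors and regulators, 2 were higher and 0 lower at 60 days. SIL1, the exchange factor of BiP, was 2.13-fold higher (log2 1.09 ± 0.21, limma adjusted p = 0.0205), and HYOU1, the HSP110 of the endoplasmic reticulum, 1.16-fold (log2 0.21 ± 0.05, limma adjusted p = 0.0417). At 90 days SIL1 had a larger log2 ratio of 1.71, 3.27-fold, that did not pass (limma adjusted p = 0.139). HSPA5, on which both act, did not pass. Of 14 HSP90 co-chaperones, 0 were higher and 2 lower. These were PTGES3 (p23), which stabilises receptors bound by HSP90 (log2 -0.64 ± 0.15, limma adjusted p = 0.0307), and FKBP5, an immunophilin of the steroid receptor complexes (log2 -1.21 ± 0.30, limma adjusted p = 0.0404). PTGES3 had -0.62 at 30 and -0.64 at 90 days (0.128 and 0.305), and FKBP5 -1.07 and -0.72 (0.160 and 0.434). Of 4 heat shock factor genes measured, HSF1, the main activator of heat shock genes, was 1.17-fold higher (log2 0.23 ± 0.05, limma adjusted p = 0.0292), and had 0.22 at 90 days (0.305).

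Of 8 subunits of the cytosolic chaperonin CCT, 0 passed, and TCP1 was at -0.58 ± 0.18 (limma adjusted p = 0.0730), beside -0.94 at 30 days (0.0939). Of 20 genes of the unfolded protein response, 4 were higher and 1 lower at 60 days. CREB3L2, a transcription factor released from the endoplasmic reticulum, was 6.41-fold higher (log2 2.68 ± 0.40, limma adjusted p = 0.0113), and had 1.26 at 30 and 1.38 at 90 days (0.183 and 0.335). CRELD2, a secreted protein of the response, and SYVN1, a ubiquitin ligase of protein degradation, were at 0.95 ± 0.21 and 0.72 ± 0.19 (limma adjusted p 0.0278 and 0.0498), and HYOU1 is also on this list. ATF4, a transcription factor of stressed cells, was 2.24-fold lower (log2 -1.16 ± 0.22, limma adjusted p = 0.0204). ATF4 had -0.59 at 30 days (0.215), and CRELD2 had 0.997 at 90 days (0.303). The list median was 0.13, against -0.05 over all genes. At 30 and 90 days 0 genes of these lists passed, with backgrounds of 0.287% and 0.00700%, and 0 passed between days, so the lists' values were not shown to differ between days.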

How the data were processed

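RNA of 9 two-colour arrays was analysed. The deposited array files hold, per the file headers, mean and median pixel intensity and local background of each spot in both channels, before background subtraction or normalisation. Per the labels' protocols, RNA went through a T7 amplification of 2 rounds and chemical labelling on guanine, and both can alter the balance between transcripts. The scanner, its software and a genome build were not given in the sources used here. A deposited value table of the authors holds log2 values whose scale, centring and direction stay unknown. Its columns correlated with the ratios of their own arrays at r = -0.760 to 0.719, had medians of -0.0208 to 0.0257, and in 5 of 9 cases matched another sample's array at r = 0.844 to 0.932, so it was used for no result. Arrays were assigned to samples as deposited, and each comparison of days rests on that.

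Intensities were corrected with normexp (offset 50) and loess, with control spots at weight 0, in limma 3.58.1 (R 4.3.3). A probe was tested if either channel's mean signal lay over the mean plus 2 SD of 153 negative control spots on 3 or more arrays (88.6% of probes). The array had 21790 probes with 1 gene symbol. A gene is given by its brightest probe. One limma model with 1 coefficient per day and 6 residual degrees of freedom was fitted to 9 arrays. P-values were adjusted over all probes, and errors are the model's SE. Levels are log2 after loess and Aquantile scaling between arrays. The script was tested on simulated data. The number of arrays limits the precision.

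Members, lists and alternatives were chosen with earlier results of these data known. Named genes were HSPA5 and DNAJC12, members past the threshold whose arrays of that day shared a sign, the 5 smallest p where fewer than 5 passed, main chaperones of each compartment and up to 4 genes per list. Members outside this rule were named after their values were seen. Old symbols were matched through a RefSeq gene table of ARS-UCD2.0 (HYOU1 is ORP150 on the array). Alternatives were no background correction, median centring, no signal filter, a filter on the controls' median and MAD (added after seeing the data), median pixels, averaged probes, blocks, array weights, trend and robust settings, the compared arrays alone, and leaving out arrays.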

Additional observations from a re-analysis of the deposited data

Results flagged for a closer look

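HSPB9, a small heat shock protein known from testis, had ratios to 120-day RNA above 0 on every 30-day array (0.07, 0.14 and 0.10, log2) and below 0 on every array of 60 days (-0.20, -0.05 and -0.24) and of 90 days (-0.03, -0.04 and -0.11). The opposite signs drew attention to it. The difference of 60 minus 30 days was -0.27, with an adjusted p of 0.349 by limma, and that of 90 minus 30 days was -0.16, with an adjusted p of 0.823. Neither difference passed, and all 9 ratios of HSPB9 lay within 0.24 of 0.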

How the results depend on the processing

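Of the 4 chaperone genes called at 60 days, 1 remained (DNAJC12) without background correction, with the replicate number as a block, with median pixel signals, and without the 3 arrays high in macrophage markers (of 30 and 90 days, so the 60-day values did not move). The count was 0 with only the compared arrays, where DNAJC12 had -0.87 with an adjusted p of 0.0557 by limma. It was 7 with the 120-day RNA set as a block, 8 with array weights and 7 with probes averaged, and each of these held all 4 genes. Leaving out 1 array gave 1 to 7. DNAJC12 alone remained without any 1 of the 60-day arrays, 2 genes passed without replicate 2 or 3 of 30 days or replicate 2 of 90 days, and 7 without replicate 3 of 90 days. Without background correction the count at 30 days rose from 0 to 5, and DNAJC12 passed there at -0.32 (adjusted p = 0.0298). Counts at 90 days and between days were 0 under all alternatives. DNAJC12 at 60 days kept its sign, from -1.02 to -0.70. HSPA5 changed sign at 60 days under median centring (0.27), at 30 days without the 3 arrays (0.0193), and at 90 days without replicate 3 (0.148). Leaving out 1 array gave HSPA5 -0.46 to -0.12 at 30 days, -0.35 to -0.08 at 60 days and -1.002 to 0.148 at 90 days. HSPA4L for 60 against 30 days became -0.00399 without the 3 arrays. Of the other named genes' values, 561 kept direction and side of the threshold, 63 lost and 4 gained a call. The causes were not tested.

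The replicate numbers did not pair the samples over all days: deviations of same-numbered arrays of different days correlated at -0.688 to 0.510 (median -0.294, 9 pairs). Between 30 and 60 days, same-numbered arrays lay in the same set and correlated at 0.340, 0.510 and 0.382 for replicates 1, 2 and 3. Arrays of 1 set of 120-day RNA correlated at -0.295 to 0.577 (median 0.390, 8 of 9 pairs over 0.1). Replicates 1 and 2 of 90 days lie in each other's sets, so their numbers may be exchanged. Over all probes, calls at 60 days fell from 5511 to 1696 with the replicate block, 2614 without background correction, 611 with median pixels, 697 without the 3 arrays, 232 without replicate 3 and 381 without replicate 1 of 60 days, and 0 with only the compared arrays. They rose to 7375 with array weights, 6610 without the filter and 6563 with the set block. At 30 days they went from 79 to 3221 without background correction and 871 with the set block, and at 90 days from 1 to 755 and 168. In some comparisons HSPB6, HSPB2, DNAJB13, DNAJB8 and HSPA12A had no spot of a channel above the negative controls, so their ratios are uncertain there.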
